A study of Mus musculus with 4 samples.

Results

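Mucin-type O-glycans are built in steps, and 10 genes of those steps were described here: Galnt3 and Galnt12 for initiation, C1galt1 and C1galt1c1 for core 1, B3gnt6 for core 3, Gcnt1 and Gcnt3 for branching, and Fut2, B4galnt2 and St6galnac6 for capping. They were taken by gene symbol from transcript tables of mouse intestine that list 55203 genes, and the level of a gene was the sum of its transcripts. The 10 genes have 34 of the 141738 listed transcripts. Levels are in FPKM (fragments per kilobase of transcript scaled to mapped fragments), which corrects for length, so levels of different genes were compared on that scale only.

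The series holds 4 RNA-seq libraries from wild-type C57BL/6NTac male mice aged 8 to 12 weeks, kept specific-pathogen-free (SPF). The label of 2 libraries is SPF tissue processed with 4 mM RVC, a ribonucleoside vanadyl complex that inhibits ribonucleases, and that of the other 2 is fresh frozen SPF tissue, with no agent named. A single protocol text, with a rinse in RVC, accompanies all 4, so whether the fresh frozen tissue met RVC is not settled by the labels. The stated purpose was a bulk measurement to set beside imaging of transcripts in tissue (MERFISH).

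O-glycosylation of mucins starts in the Golgi, where a polypeptide GalNAc-transferase places N-acetylgalactosamine on a serine or threonine. C1galt1 adds galactose to make core 1 and needs its chaperone C1galt1c1 (Cosmc) to fold, whereas B3gnt6 adds N-acetylglucosamine to the same sugar to make core 3. Branching enzymes turn core 1 into core 2 and core 3 into core 4, and fucose, sialic acid and N-acetylgalactosamine cap the chains. In the colon these glycans make up most of the mass of the mucins, which form the mucus layer that keeps bacteria away from the epithelium.

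The libraries carry batch numbers 1 and 2 for RVC and 3 and 4 for fresh frozen, so differences of batch and of group cannot be told apart, and each batch holds 1 library. The labels do not say whether libraries came from separate animals, so each p-value measures only the spread between these 4 libraries. In limma that spread is moderated by the spread of all genes or transcripts tested (eBayes). Relative depth ran from 72.6% to 100% of the deepest library. The tissue is labelled ileum while the protocol names distal colon. All 7 of 7 colon markers reached 1 FPKM in every library, against 3 of 8 ileum markers (Fabp2, Fabp6 and Slc10a2). Fabp2 ran from 14.5 to 43.7 FPKM, Fabp6 from 2.70 to 3.96 FPKM and Slc10a2 from 2.33 to 3.07 FPKM. Another 3 ileum markers (Fgf15, Apoa4 and Defa17) were listed at 0 in all 4. Several marker lists were higher in both RVC libraries without overlap: 10 of 10 smooth muscle, 8 of 8 endothelial, 6 of 6 tested plasma cell and 7 of 10 absorptive colonocyte genes, against 26.5% of all genes tested. Of 10 goblet cell markers, 1 was higher and 4 were lower in this way, against 26.5% higher and 26.6% lower of all genes tested. Of 6 fibroblast markers 0 separated in either direction, and of 4 tested leukocyte markers 2 were higher. Smooth muscle markers had summed levels of 1193 and 1757 FPKM against 747 and 798 FPKM. The summed level of 12 pan-epithelial markers was 5307 and 5162 FPKM in RVC and 5546 and 4312 FPKM in fresh frozen tissue, ranges that overlap. Krt8 and Krt19 held 28.2% and 23.4% of that sum on average. Gene by gene, 5 of the 12 were higher and 2 lower in RVC without overlap, against 26.5% and 26.6% of all genes tested.

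St6galnac6 had the highest level of the 10 genes in every library and B3gnt6 the lowest. Mean levels over the 4 libraries ran from 208 ± 3.21 FPKM (SD, n = 4) for St6galnac6 to 0.311 ± 0.0415 FPKM (SD, n = 4) for B3gnt6. Gcnt1 and B4galnt2 followed St6galnac6 at means of 71.4 and 70.2 FPKM, then came Gcnt3, C1galt1 and Fut2 between 35.0 and 40.1 FPKM, C1galt1c1 at 23.5 FPKM, Galnt12 at 15.6 FPKM and Galnt3 at 12.8 FPKM. The 9 genes above B3gnt6 lay above 67.8% (Galnt3) to 97.8% (St6galnac6) of the 13775 genes tested. Neighbours in this order whose libraries did not overlap were St6galnac6 and Gcnt1 (2.91 times apart), B4galnt2 and Gcnt3 (1.75), Fut2 and C1galt1c1 (1.49), C1galt1c1 and Galnt12 (1.50), and Galnt3 and B3gnt6 (41.1). Gcnt1 and B4galnt2, Gcnt3 and C1galt1, C1galt1 and Fut2, and Galnt12 and Galnt3 overlapped across libraries, so these neighbours have no fixed order. C1galt1 lay below Fut2 and Gcnt3 in both RVC libraries and above them in both fresh frozen libraries.

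**Figure D1:**
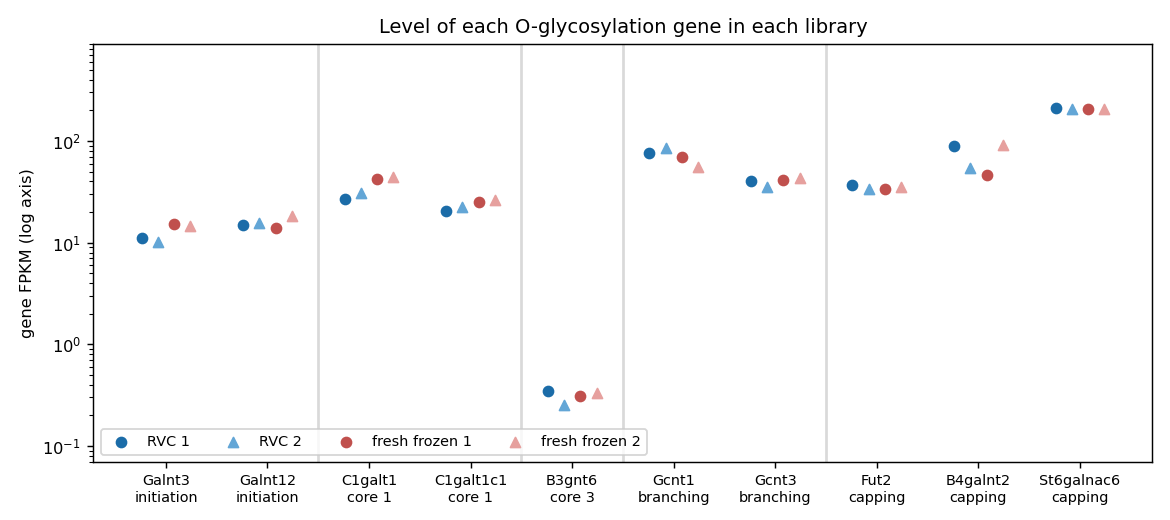
Gene FPKM on a log axis for the 10 genes, grouped by step of glycan synthesis. Each point is 1 library, with RVC in blue and fresh frozen in red. St6galnac6 lies near 208 FPKM in all 4 libraries, B3gnt6 near 0.311 FPKM, and the points of B4galnt2 are spread within both groups.

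Between RVC and fresh frozen tissue, 0 of the 9 genes tested passed an adjusted p of 0.05 in limma, with 0.0363% of all genes tested passing (5 of 13775). B3gnt6 was below the mean of 1 FPKM required for the test. At an unadjusted p under 0.05, C1galt1 and Galnt3 were lower in RVC and Gcnt1 was higher, which is 3 of 9, and 18.4% of all genes tested met that rule. After scaling, the libraries of the 2 groups did not overlap for 4 of the 9 genes, against 53.2% of all genes tested. Of these, C1galt1, C1galt1c1 and Galnt3 were lower in RVC (background 26.6%) and Gcnt1 was higher (background 26.5%). The median log2 difference, RVC less fresh frozen, was -0.05 over the 9 genes and 0.0062 over all genes tested. In bulk tissue, fewer cells of a type and less RNA per cell cannot be told apart, and that holds for each difference given here. A permutation of 2 libraries against 2 cannot give a two-sided p below 0.333 for any single gene.

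**Figure D2:**
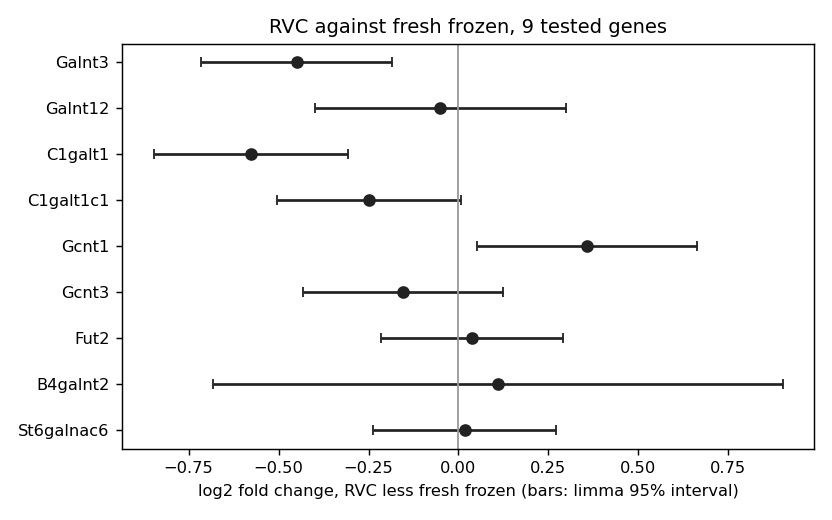
Difference between RVC and fresh frozen libraries for the 9 tested genes, as log2 of scaled FPKM plus 1, with points for the limma estimate and bars for its 95% confidence interval (2 libraries a group). The intervals of C1galt1 and Galnt3 lie below 0 and that of Gcnt1 above it, and the interval of B4galnt2, -0.68 to 0.90, is the widest.

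Initiation was read from Galnt3 and Galnt12, members of the large family of polypeptide GalNAc-transferases that decide which serines and threonines carry a glycan. Galnt3 (ENSMUSG00000026994, GRCm39 chr2:65913110-65955338, minus strand) had 11.0 and 10.2 FPKM in RVC and 15.4 and 14.4 FPKM in fresh frozen tissue. Both RVC libraries were lower than both fresh frozen libraries. The log2 difference was -0.45 (SE 0.113, 95% interval -0.72 to -0.18), with an adjusted p of 0.142 in limma. Galnt12 (ENSMUSG00000039774, chr4:47091909-47123070, plus strand), known for its expression in the digestive tract, had 15.0 and 15.5 FPKM in RVC and 13.9 and 18.1 FPKM in fresh frozen tissue. Its highest and lowest libraries were both fresh frozen, so the groups overlapped. Its log2 difference was -0.05 (SE 0.148, 95% interval -0.40 to 0.30), adjusted p = 0.876. Galnt12 exceeded Galnt3 by 1.36 and 1.52 times in the RVC libraries and by 1.26 times in fresh frozen library 2, and was 0.901 times Galnt3 in fresh frozen library 1.

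A single transcript held nearly all of Galnt12, while Galnt3 was split. The Galnt12 transcript of 2288 nt (ENSMUST00000045041) took 95.3% or more of the gene's FPKM. Of Galnt3, the protein-coding transcript of 3885 nt (ENSMUST00000028378) took 66.1% and 61.1% in RVC and 59.6% and 59.3% in fresh frozen tissue. A transcript of 754 nt with no defined coding sequence (ENSMUST00000155453) took 25.6% and 32.3% in RVC and 34.6% and 35.4% in fresh frozen tissue. That shorter transcript had 2.81 and 3.31 FPKM in RVC and 5.33 and 5.10 FPKM in fresh frozen tissue, a log2 difference of -0.61 (SE 0.140), adjusted p = 0.238. The coding transcript had 7.27 and 6.25 FPKM in RVC and 9.19 and 8.55 FPKM in fresh frozen tissue, a log2 difference of -0.35 (SE 0.132), adjusted p = 0.320. Both transcripts were lower in both RVC libraries. FPKM of short transcripts is less stable, since few fragments fit within them, so part of the gene sum of Galnt3 rests on a less certain estimate.

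Among the 18 of 19 listed polypeptide GalNAc-transferases that were in the files, Galnt12 ranked 5 and Galnt3 ranked 6 by mean level. Galnt7, an enzyme that prefers peptides already carrying a GalNAc, led with 40.0 ± 5.20 FPKM (SD, n = 4), followed by Galnt6 at 26.3 ± 2.49 FPKM and Galnt1 at 21.4 ± 2.75 FPKM. Galnt12 made up 8.12% to 10.1% of the summed level of the family and Galnt3 6.61% to 9.01%, the higher shares of Galnt3 being in the fresh frozen libraries. Of 11 family genes tested, 0 passed the adjusted threshold, at an unadjusted p under 0.05 RVC was higher for 1 and lower for 3 (18.4% of all genes tested met that rule in either direction), and the median log2 difference was -0.18.

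Core 1 and core 3 compete for the same sugar, and the 2 enzymes had very unequal levels. C1galt1 (ENSMUSG00000042460, chr6:7844842-7875687, plus strand, 1 transcript of 6092 nt) had 26.8 and 30.5 FPKM in RVC and 42.0 and 44.6 FPKM in fresh frozen tissue. Every fresh frozen library was higher than every RVC library, with group means of 43.3 ± 1.83 and 28.7 ± 2.67 FPKM (SD, n = 2 each), 1.51 times apart. The FPKM confidence bounds that Cufflinks gave for each library were 25.9 to 27.6 and 29.7 to 31.4 in RVC and 40.9 to 43.1 and 43.6 to 45.5 in fresh frozen tissue, and no bounds met between groups, though bounds cover the error of estimation within a library and not the spread between samples. The log2 difference was -0.58 (SE 0.115, 95% interval -0.85 to -0.31), unadjusted p = 0.0014 and adjusted p = 0.129 in limma. Scaled to pan-epithelial markers the difference was -0.67 (adjusted p = 0.130). The marker lists that were higher in RVC (smooth muscle, endothelial, plasma cell and absorptive colonocyte) stand beside this result, and their part in it was not tested. The same holds for the 10 goblet cell markers. Of these, 4 were lower and 1 was higher without overlap, against 26.6% lower and 26.5% higher of all genes tested. The median log2 difference over the list was -0.05.

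C1galt1c1, the chaperone without which C1galt1 is degraded (ENSMUSG00000048970, chrX:37719662-37723964, minus strand), had 20.4 and 22.2 FPKM in RVC and 25.1 and 26.1 FPKM in fresh frozen tissue. It too was lower in both RVC libraries, by a smaller amount: the log2 difference was -0.25 (SE 0.109, 95% interval -0.50 to 0.0074), adjusted p = 0.280. The ratio of C1galt1 to its chaperone was 1.31 and 1.38 in RVC and 1.67 and 1.71 in fresh frozen tissue. C1galt1 was therefore above its chaperone in all 4 libraries, and the ratio was higher in both fresh frozen libraries, a difference that was not tested.

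B3gnt6, the core 3 enzyme (ENSMUSG00000074004, chr7:97841624-97848688, minus strand, 1 transcript of 2371 nt), had 0.347 and 0.253 FPKM in RVC and 0.311 and 0.334 FPKM in fresh frozen tissue. These levels were low but above 0 in each library, with Cufflinks bounds from 0.195 to 0.498 and from 0.121 to 0.385 in RVC, and from 0.160 to 0.462 and from 0.200 to 0.468 in fresh frozen tissue. All 4 bounds overlap one another, and no difference between groups was detectable at this depth. C1galt1 exceeded B3gnt6 by 77.2 and 121 times in RVC and by 135 and 133 times in fresh frozen tissue. An antisense long noncoding RNA, Gm16938, shares 120 nt of exon with B3gnt6 and had 1.18 and 1.37 FPKM in RVC and 0.703 and 0.682 FPKM in fresh frozen tissue, in each library more than B3gnt6 itself. No source used here states whether counting used strand, so reads of this pair may have been shared. B3gnt6 had the lowest mean of the 8 B3gnt genes listed. B3gnt7 (118 ± 8.45 FPKM), which extends keratan sulfate and polylactosamine chains, B3gnt3 (50.2 ± 6.33 FPKM), which extends core 1, and B3gnt2 (32.9 ± 10.8 FPKM) led that family (SD, n = 4 each).

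The start regions of the genes for core 1 and core 3 also differed in base composition, and they are shown because they go with the 2 extremes of this step. Each is the 200 nt before the start of the transcript in the GENCODE vM39 annotation of GRCm39, 5′ to 3′ on the strand of the gene, with motif matches in capitals. The C1galt1 region is chr6:7844434-7844633 (plus strand) and the B3gnt6 region is chr7:97848729-97848928 (minus strand). The deposited transcripts start elsewhere, at 7844842 for C1galt1 and 97848688 for B3gnt6, against 7844634 and 97848728 in GENCODE vM39.
C1galt1: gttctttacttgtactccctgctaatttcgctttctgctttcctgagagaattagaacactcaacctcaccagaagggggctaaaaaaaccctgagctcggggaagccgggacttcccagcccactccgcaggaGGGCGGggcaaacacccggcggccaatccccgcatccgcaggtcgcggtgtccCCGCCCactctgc
B3gnt6: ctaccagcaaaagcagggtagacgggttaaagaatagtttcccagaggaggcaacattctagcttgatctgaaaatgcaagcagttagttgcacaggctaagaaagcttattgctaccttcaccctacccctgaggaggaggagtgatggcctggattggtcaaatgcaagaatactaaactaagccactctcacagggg
The C1galt1 region has 12 CpG dinucleotides and 59.5% GC, with 2 GC boxes at positions -66 to -61 and -13 to -8 from the start. The B3gnt6 region has 1 CpG and 47% GC, and 4.40% of the 13736 start windows of tested genes have fewer CpG than that. The median window has 9 CpG and 56% GC. The motifs searched, on both strands, were the TATA box TATAAA (in 7.31% of windows), the GC box GGGCGG (41.1%), a CDX core TTTATG (6.74%) and an HNF4 core CAAAGTCCA (0.335%). The reverse complement of TATAAA and the CDX core differ in their last letter only, so no stretch counts as both. None of these 4 motifs has a full match in the B3gnt6 window, which says nothing of the factors themselves.

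Branching was read from Gcnt1, which makes core 2 from core 1, and Gcnt3, the mucin-type enzyme that makes core 2 and core 4. Gcnt1 (ENSMUSG00000038843, chr19:17303505-17350208, minus strand) had 75.6 and 84.4 FPKM in RVC and 69.4 and 56.0 FPKM in fresh frozen tissue. It was the only one of the 9 tested genes that was higher in both RVC libraries than in both fresh frozen libraries. The log2 difference was 0.36 (SE 0.130, 95% interval 0.05 to 0.66), unadjusted p = 0.0277 and adjusted p = 0.222. The same marker lists stand beside it, among them the absorptive colonocyte markers, with summed levels of 22050 and 21374 FPKM in RVC and 19363 and 14839 FPKM in fresh frozen tissue, and their part was not tested. Gcnt3 (ENSMUSG00000032226, chr9:69938778-69945370, minus strand, 1 transcript of 4301 nt) had 40.6 and 35.1 FPKM in RVC and 41.1 and 43.4 FPKM in fresh frozen tissue. Both RVC libraries were lower on the deposited values, but after scaling RVC library 1 lay between the fresh frozen libraries, so the groups overlapped in the tested values. Its log2 difference was -0.15 (SE 0.118, 95% interval -0.43 to 0.12), adjusted p = 0.497. Gcnt1 exceeded Gcnt3 by 1.86 and 2.40 times in RVC and by 1.69 and 1.29 times in fresh frozen tissue. These 2 genes made up 87.4% to 91.1% of the summed level of their family. Gcnt2, the enzyme that branches polylactosamine, had 13.5 ± 2.46 FPKM, Gcnt7 0.432 ± 0.184 FPKM and Gcnt4 0.159 ± 0.0388 FPKM (SD, n = 4 each).

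The 2 most abundant of the 5 transcripts of Gcnt1 start 16177 nt apart. The transcript of 4606 nt (ENSMUST00000174236, chr19:17303505-17334031) starts at the proximal end and had 61.8 and 64.9 FPKM in RVC and 63.7 and 52.1 FPKM in fresh frozen tissue. Its groups overlapped, with a log2 difference of 0.14 (SE 0.127) and an adjusted p of 0.623. The transcript of 2046 nt (ENSMUST00000236139, chr19:17306033-17350208) starts at the distal end and had 11.1 and 16.3 FPKM in RVC and 4.30 and 2.43 FPKM in fresh frozen tissue. Its Cufflinks bounds were 9.77 to 12.4 and 14.6 to 17.9 in RVC, and 3.47 to 5.13 and 1.89 to 2.96 in fresh frozen tissue. These bounds cover the error of estimation within a library only, and no bounds met between groups. The log2 difference was 1.76 (SE 0.278), with an unadjusted p of 0.0015 and an adjusted p of 0.192 in limma over 24188 transcripts. Its share of the Gcnt1 FPKM was 14.6% and 19.3% in RVC and 6.20% and 4.33% in fresh frozen tissue. The difference of the gene as a whole thus came with a difference of the transcript from the distal start, though not of that transcript alone. Leaving out 1 library at a time gave 1.46 to 2.07 for this transcript. Smaller transcripts of 1122, 4594 and 1837 nt were also higher in both RVC libraries. That of 1122 nt, from the proximal start, had 1.43 and 1.55 FPKM in RVC and 0.889 and 1.04 FPKM in fresh frozen tissue (adjusted p = 0.427 in limma). Those of 4594 and 1837 nt averaged 0.532 and 0.466 FPKM, below the level required for the test.

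The 2 start regions of Gcnt1 are shown because its tested transcript with the largest log2 difference between groups came from 1 of them. Each is the 200 nt before the most upstream start annotated there in GENCODE vM39 on GRCm39, which for the proximal end lies 10 nt upstream of the start of the 4606-nt transcript. They are written 5′ to 3′ on the minus strand, at chr19:17350209-17350408 for the distal and chr19:17334042-17334241 for the proximal start, with the TATA box in capitals as its reverse complement.
Gcnt1, distal start: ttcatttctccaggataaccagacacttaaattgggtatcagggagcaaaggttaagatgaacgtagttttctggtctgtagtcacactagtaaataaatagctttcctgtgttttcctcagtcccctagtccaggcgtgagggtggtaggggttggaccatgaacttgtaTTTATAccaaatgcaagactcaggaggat
Gcnt1, proximal start: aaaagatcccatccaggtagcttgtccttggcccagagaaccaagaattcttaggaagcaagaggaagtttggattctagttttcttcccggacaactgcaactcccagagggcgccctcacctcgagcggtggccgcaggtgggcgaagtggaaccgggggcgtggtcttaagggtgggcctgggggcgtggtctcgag
The distal region has 2 CpG and 43% GC, with a TATA box on the opposite strand at positions -29 to -24. The proximal region has 10 CpG and 58.5% GC, close to the median window, with none of the 4 motifs. The transcript from the distal start ends at a different place in the files than in GENCODE vM39, 17306033 against 17303505, so its length and with it its FPKM depend on the annotation.

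**Figure D3:**
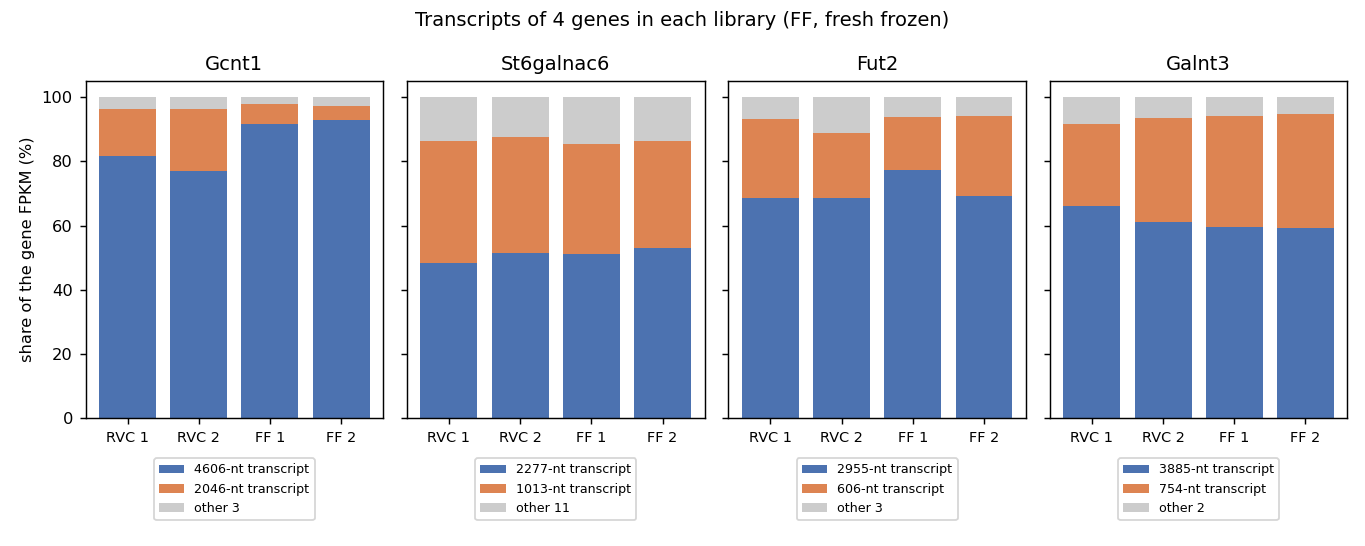
Share of the gene FPKM, in percent, held by each main transcript of Gcnt1, St6galnac6, Fut2 and Galnt3, with 1 bar a library. The 2046-nt transcript of Gcnt1 takes 14.6% and 19.3% in RVC and 6.20% and 4.33% in fresh frozen tissue. St6galnac6 keeps 2 main transcripts in all 4 libraries.

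Across the 34 transcripts, 19 were tested and 0 passed the adjusted threshold in limma (background 0.00413%). At an unadjusted p under 0.05, 1 was higher in RVC, the distal Gcnt1 transcript, and 3 were lower, that of C1galt1 and the main pair of Galnt3. That is 4 of 19, and 15.5% of all transcripts tested met the rule.

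Among the capping genes of the 10, the highest was St6galnac6, a sialyltransferase that adds sialic acid in α2,6 linkage to GalNAc of glycolipids and of some O-glycans. St6galnac6 (ENSMUSG00000026811, chr2:32489721-32510818, plus strand) had 212 and 205 FPKM in RVC and 207 and 207 FPKM in fresh frozen tissue. It varied least of the 10 genes, with a coefficient of variation of 1.54% over libraries, and its groups overlapped. The log2 difference was 0.02 (SE 0.108, 95% interval -0.24 to 0.27), adjusted p = 0.947, and it was -0.08 when scaled to pan-epithelial markers. It made up 94.0% to 95.2% of the summed level of the St6galnac family. St6galnac4, which sialylates sialyl core 1, had 6.73 ± 0.345 FPKM, St6galnac2 had 4.22 ± 0.905 FPKM and St6galnac3 had 0.400 ± 0.220 FPKM (SD, n = 4 each). St6galnac1, which makes sialyl-Tn on mucins, was listed at 0.0163 and 0 FPKM in RVC and at 0 and 0.0265 FPKM in fresh frozen tissue.

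St6galnac6 was also made of a pair of main transcripts. The transcript of 2277 nt (ENSMUST00000072111) had 103 and 106 FPKM in RVC and 106 and 109 FPKM in fresh frozen tissue, with an adjusted p of 0.857. A transcript of 1013 nt with a start further upstream (ENSMUST00000131229) had 81.0 and 74.3 FPKM in RVC and 70.8 and 68.9 FPKM in fresh frozen tissue. The shorter one was higher in both RVC libraries, with a log2 difference of 0.15 (SE 0.104) and an adjusted p of 0.509. They made up 48.3% to 52.9% and 33.3% to 38.1% of the gene in each library.

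Fut2, the α1,2-fucosyltransferase that makes the terminal fucose on which gut bacteria feed and to which some bind, was steady. Fut2 (ENSMUSG00000055978, chr7:45298015-45315818, minus strand) had 36.8 and 34.1 FPKM in RVC and 34.0 and 35.2 FPKM in fresh frozen tissue. The groups overlapped, and the log2 difference was 0.04 (SE 0.107, 95% interval -0.21 to 0.29), adjusted p = 0.870. Its direction depended on scaling, being -0.06 when scaled to pan-epithelial markers. The transcript of 2955 nt (ENSMUST00000069800) took 68.4% and 68.5% of the gene in RVC and 77.3% and 69.2% in fresh frozen tissue. One of 606 nt (ENSMUST00000210620) took 24.6% and 20.5% in RVC and 16.6% and 25.1% in fresh frozen tissue. St6galnac6 exceeded Fut2 by 5.77 and 6.02 times in RVC and by 6.09 and 5.88 times in fresh frozen tissue, the steadiest of the ratios computed. Fut2 made up 47.7% to 55.4% of the chain-end fucosyltransferases. Fut4, an α1,3-fucosyltransferase, had 30.1 ± 2.77 FPKM and Fut9 2.76 ± 0.761 FPKM (SD, n = 4 each). Fut1, another α1,2-fucosyltransferase, had 0.111 FPKM on average and Sec1 0.155 FPKM.

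B4galnt2, which adds GalNAc to sialylated chains to make the Sda (Cad) antigen of the colon, varied most of the 10 genes. B4galnt2 (ENSMUSG00000013418, chr11:95756769-95805717, minus strand, 1 transcript of 1722 nt) had 89.6 and 54.4 FPKM in RVC and 46.2 and 90.7 FPKM in fresh frozen tissue. The high pair was RVC library 1 and fresh frozen library 2, so each group held a high and a low library. The highest was 1.96 times the lowest, with a coefficient of variation of 33.1%. The gap within the RVC group was 0.72 on the log2 scale, wider than in 98.4% of genes tested, and the gap within the fresh frozen group was -0.99 (library 1 less library 2), wider than in 99.1%. Between groups the log2 difference was 0.11 (SE 0.337, 95% interval -0.68 to 0.90), adjusted p = 0.882. That interval admits differences of either sign, so the libraries do not settle whether RVC and fresh frozen tissue differ in B4galnt2. Without fresh frozen library 1 the difference was -0.38, and without fresh frozen library 2 it was 0.60.

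A few genes were set beside B4galnt2 after their values had been seen. Muc2, the secreted mucin that bears most of these glycans, had 176 and 143 FPKM in RVC and 139 and 302 FPKM in fresh frozen tissue. Fcgbp, a goblet cell protein of the mucus, had 989 and 660.4 FPKM in RVC and 643 and 969.8 FPKM in fresh frozen tissue. Clca1, another goblet cell product, had 3665 and 2385 FPKM in RVC and 2591 and 3024 FPKM in fresh frozen tissue. For Muc2, Fcgbp and Clca1, as for B4galnt2, RVC library 1 was above RVC library 2 and fresh frozen library 2 above fresh frozen library 1. Of the 10 goblet cell markers, Fcgbp and Clca1 among them, 6 followed that order and 4 (Tff3, Agr2, Spink4 and Ccl6) did not. Their summed level, of which Zg16 made up 50.8% and Clca1 18.4%, followed it, with 17718 and 14353 FPKM in RVC and 14805 and 16494 FPKM in fresh frozen tissue, over a narrower range than B4galnt2. Hoxd13, a homeobox gene of the posterior hindgut, had 9.59 and 26.0 FPKM in RVC and 39.5 and 5.68 FPKM in fresh frozen tissue, high where B4galnt2 was low. Hoxa13, of the same colon marker list, had 20.9 and 20.5 FPKM in RVC and 21.6 and 22.2 FPKM in fresh frozen tissue. Hoxb13 had 133 and 124 FPKM in RVC and 132 and 98.5 FPKM in fresh frozen tissue. Neither Hoxa13 nor Hoxb13 ran opposite to B4galnt2 in both groups. How many of all genes tested share the order of B4galnt2 is not given here. The 6 of 10 goblet cell markers in that order are therefore a count without a background. The part of goblet cell content or of position in the spread of B4galnt2 was not tested.

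**Figure D4:**
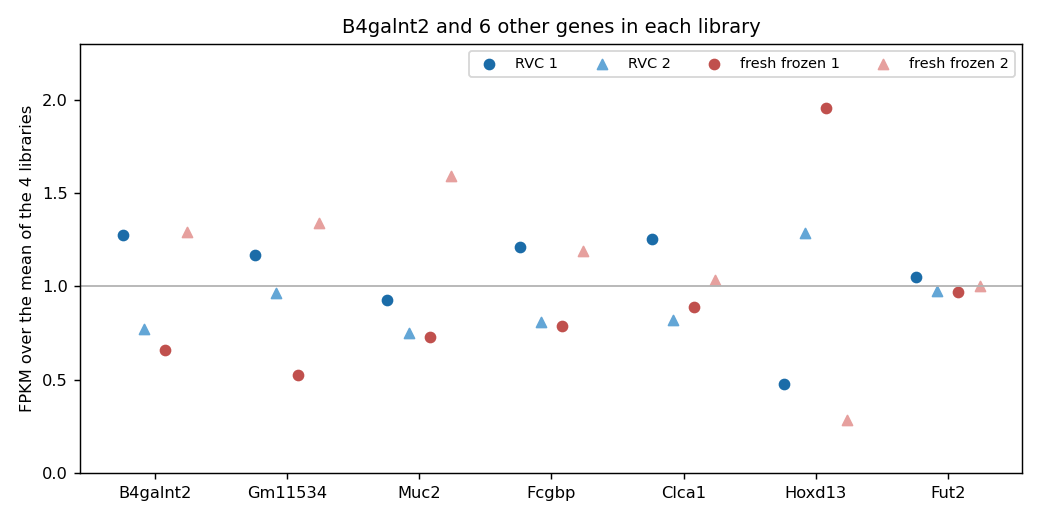
FPKM of each library divided by the mean of the 4 libraries, for B4galnt2, the antisense Gm11534, Muc2, Fcgbp, Clca1, Hoxd13 and Fut2, the genes other than B4galnt2 and Fut2 having been chosen after their values were seen. B4galnt2 lies at 1.28 and 0.774 in RVC and at 0.658 and 1.29 in fresh frozen tissue, whereas Fut2 lies between 0.971 and 1.05.

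B4galnt2 also overlaps antisense transcripts, and counting by strand is not stated. Gm11534, a long noncoding RNA that shares 263 nt of exon with it, had 13.1 and 10.8 FPKM in RVC and 5.84 and 14.9 FPKM in fresh frozen tissue. It too was highest in fresh frozen library 2 and RVC library 1. A second antisense RNA, 4833417C18Rik, averaged 0.335 FPKM. B4galnt2 exceeded Fut2 by 2.43 and 1.60 times in RVC and by 1.36 and 2.58 times in fresh frozen tissue. It made up 74.3% to 83.3% of its family, with B4galnt3 next at 16.1 ± 0.820 FPKM then B4galnt1, a ganglioside enzyme, at 1.01 ± 0.771 FPKM and B4galnt4 at 0.567 ± 0.281 FPKM (SD, n = 4 each).

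The enzymes around these steps were read from lists of 91 other genes of the pathway, mucins aside. Of 58 tested, 0 passed the adjusted threshold (lowest adjusted p 0.130, in limma), and at an unadjusted p under 0.05 there were 4 higher and 11 lower in RVC, against 18.4% of all genes tested in either direction. Without overlap of the groups, 7 of the 58 were higher in RVC and 29 lower, against 26.5% and 26.6% of all genes tested, with a median log2 difference of -0.11. Chain extension was led by B3galt5, which makes type 1 chains (116 ± 11.1 FPKM), B4galt1, which makes type 2 chains (87.8 ± 16.2 FPKM), and B4galt5 (15.5 ± 1.65 FPKM, all SD, n = 4). Of the other sialyltransferases, St3gal4 had 343 ± 65.7 FPKM, more than St6galnac6 in all 4 libraries. St3gal6 had 85.4 ± 11.4 FPKM and St6gal1 23.2 ± 4.07 FPKM (SD, n = 4 each). Sulfotransferases of mucin glycans were led by Gal3st2 (26.3 ± 2.54 FPKM), Gal3st2b (17.5 ± 1.90 FPKM) and Chst4 (12.0 ± 1.95 FPKM, all SD, n = 4), and the Gal3st2 genes are near-identical copies whose reads may be shared.

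Glycosyltransferases draw on sugar nucleotides, and the genes that make and transport these were read as a list of 21. Of 20 tested, 0 passed the adjusted threshold, at an unadjusted p under 0.05 RVC was lower for 6 and higher for 0, and 10 were lower and 0 higher without overlap of the groups. Over all genes tested, 18.4% met the first rule in either direction, and 26.6% were lower and 26.5% higher without overlap. The median log2 difference of the list was -0.13. Gfpt1, the first enzyme of hexosamine synthesis, had 152 and 149.7 FPKM in RVC and 180.3 and 187 FPKM in fresh frozen tissue. Gne, which starts sialic acid synthesis, had 133 and 137 FPKM in RVC and 159 and 143 FPKM in fresh frozen tissue. Nans, which makes sialic acid phosphate, had 85.8 and 90.5 FPKM in RVC and 117 and 103.9 FPKM in fresh frozen tissue. These 3 genes have the highest means of their list and were lower in both RVC libraries. The summed level of the 21 genes was 928 and 959 FPKM in RVC and 1124 and 1074 FPKM in fresh frozen tissue. No test over the list was made.

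The proteins that carry the glycans were measured less evenly. Muc13, a membrane mucin, had 687 and 681 FPKM in RVC and 685 and 575 FPKM in fresh frozen tissue. Muc2 is given above, beside B4galnt2. Muc3 was listed at 0 in 3 libraries where its estimate did not complete and at 1327 FPKM in RVC library 2, so no level is drawn from it.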

How the data were processed

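RNA of 4 libraries was depleted of ribosomal RNA and sequenced as 150-bp pairs on an Illumina NextSeq instrument, per the labels' protocols. Reads were aligned with TopHat 2.1.1 to GRCm39 and abundances estimated with Cufflinks 2.2.1 at default parameters, per the design text and the submitters' processing notes. The annotation release, the use of strand and read filters are not given in the sources used here.

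The authors deposited FPKM per transcript with lower and upper confidence bounds, per the file headers. The deposited coverage, a signal of reads per base, gave relative depth (81.8%, 79.8%, 72.6% and 100%), and the median upper bound lay 16.9% to 19.4% above the FPKM. Reads shared by overlapping transcripts are assigned by a likelihood model, so transcript values are less certain than gene sums.

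Gene FPKM was the sum over transcripts. Libraries were scaled by median ratio, and log2(scaled FPKM + 1) was tested with limma 3.58.1 (R 4.3.3; eBayes with a trend after lmFit, two-sided, all 4 libraries, no covariate), adjusted by Benjamini-Hochberg over 13775 genes or 24188 transcripts, with a threshold of 0.05. Tested features had a mean of at least 1 FPKM, at least 300 nt and status OK throughout; fold changes on this scale understate those of low genes. Start windows and gene types came from GRCm39 and GENCODE vM39. Tables were made in pandas 2.3.3 and figures in matplotlib 3.10.9.

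The 10 genes and the gene lists were chosen with earlier results of these data known. Named genes were the 10, the 3 highest other genes of each pathway list, and transcripts with at least 10% of a gene. St6galnac1, Fut1, Fcgbp, Clca1, Hoxd13, Zg16 and the goblet cell markers given by order lie outside that rule and were picked with their values in view. Hoxa13, Hoxb13, the ileum markers named and the smaller Gcnt1 transcripts also lie outside it. Where 2 gene IDs share a symbol, as for St6galnac2, the ID with the higher level was used. Alternatives were a pseudocount of 0.1, no scaling, scaling to pan-epithelial markers, no minimum FPKM, a replicate block, the most abundant transcript, and each library left out. Genes of the lists that are not in the files were not analysed here.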

Additional observations from a re-analysis of the deposited data

How the results depend on the processing

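None of the 9 tested genes passed the adjusted threshold in limma under any alternative that kept all 4 libraries, the crossed pairing described below among them. Under these, the most abundant transcript not counted, 3 or 4 of the genes had an unadjusted p under 0.05. Genes called in all numbered 5, against 8 with scaling to pan-epithelial markers, 0 with no minimum FPKM (3531 at an unadjusted p under 0.05) and 13 to 25 with 1 library left out, where the lone library of a group is assumed to vary like the others. Transcripts called numbered 1, against 0 with no minimum FPKM (9167 unadjusted) and 0 to 0 with 1 library left out (2055 to 2904 unadjusted). With the sample number as a replicate block, 123 genes were called, 0 of the 9 among them. Whether the numbers pair the libraries is not settled. The 2 within-group differences had a correlation of -0.13 across genes, which alone cannot decide it. A crossed pairing, added after seeing the data, gave 12 genes and 1 transcript.

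C1galt1 (-0.67 to -0.49), C1galt1c1 (-0.34 to -0.19), Galnt3 (-0.54 to -0.35), Gcnt3 (-0.26 to -0.05) and Gcnt1 (0.14 to 0.49) kept their sign under every alternative. Signs turned for genes and transcripts near 0. Scaling to pan-epithelial markers gave -0.055 for Fut2 and -0.078 for St6galnac6, and the most abundant transcript gave -0.054 and -0.043. Leaving out 1 library gave -0.25 to 0.14 for Galnt12, -0.020 to 0.096 for Fut2, -0.38 to 0.60 for B4galnt2 and -0.012 to 0.046 for St6galnac6. The same gave -0.11 to 0.0029 for the 2955-nt and -0.14 to 0.45 for the 606-nt transcript of Fut2, and -0.28 to 0.17 for the 2288-nt transcript of Galnt12. When only the most abundant transcript was used, the mean log2 ratio of Galnt12 to Galnt3 moved from 0.31 to 0.97, that of B4galnt2 to Fut2 from 0.94 to 1.44 and that of St6galnac6 to Fut2 from 2.57 to 2.096, since Galnt3, Fut2 and St6galnac6 are split between transcripts. The cause of the other changes was not tested.

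Each group holds 2 libraries, each with a batch number of its own. Depth limits B3gnt6, whose bounds in RVC library 2 run from 0.121 to 0.385 FPKM around a level of 0.253 FPKM.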
